A study of Mus musculus with 80 samples.

Results

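Left ventricle of mice fed a Western diet without irradiation was compared with left ventricle of mice fed a normal diet and exposed to gamma radiation at 100 cGy. Libraries were chosen by the diet, field and dose in their labels, which gave 40 of the 80 libraries of the series: 20 on the Western diet with the sham field (0 cGy) and 20 on the normal diet with the gamma field. Each condition held 10 male and 10 female libraries of strain C57Bl/6J, numbered replicates 1 to 10 within sex, and no allele, transgene or other agent is named. Title numbers 1 to 20 (replicates 1 to 5) are called the first run here and title numbers 21 to 40 (replicates 6 to 10) the second run, and the labels do not say what the runs stand for. The 20 libraries on the normal diet with the sham field, called sham below, are given as levels only. The series asks how radiation and a fat-rich diet act on the ventricle over a mouse's life. The labels give no age, no interval after exposure and no hour of collection. Diet and radiation both differ between the conditions, so this comparison alone cannot tell their parts in a difference apart. Neither condition was tested against sham here. Separate animals are not stated, so a p-value here is set against library-to-library variation, some of which may be technical.

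Heart muscle burns mainly fatty acids, and a Western diet supplies more fat and sugar. Gamma radiation breaks DNA and activates p53, which induces cell cycle arrest and cell death genes. Heart cells also run a circadian clock. In it the activators BMAL1, CLOCK and NPAS2 switch on the Per and Cry repressors, the REV-ERB receptors and the output factors DBP, TEF and HLF through E-box sequences. The repressors then silence the activators, and REV-ERB and ROR receptors act on Bmal1 through an AGGTCA half-site. Bmal1 and its partner Npas2 therefore peak at another time of day than Per2, Per3 and the output factors.

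Library totals ran from 14086850 to 22143504 counts. Rn18s-rs5, a ribosomal RNA gene, held from 0.102% to 5.03% of a library's counts and varied within runs. In first-run males it held 0.178% to 0.419% in Western libraries. There gamma replicates 3 and 4 had 2.26% and 2.21%, and the other gamma libraries 0.161% to 0.265%. With its share as a covariate males gave 143 calls in place of 149, and the sex difference 136 in place of 126. The 14 ventricular cardiomyocyte markers summed to between 60100 and 86800 CPM (counts scaled to the library's size) in a library, against 671 to 2280 CPM for 13 atrial markers. More than 10 CPM of Myl7, a myosin light chain of atrial muscle, was found in 11 libraries, which were the 10 male libraries of the first run, of both conditions, and male gamma replicate 10. In that library (title M40) the 17 T and NK cell markers summed to 282 CPM, against at most 20.4 CPM in the other male gamma libraries, so results are also given without it. Xist, the silencing RNA of the inactive X, was at 0.129 CPM in female gamma replicate 7, against at least 117 CPM in the other female gamma libraries, and its Ddx3y, which is Y-linked, was at 0. Without it males gave 144 calls in place of 149 and the sex difference 110 in place of 126. The counts of female gamma replicates 8 and 9 were closer to each other than those of any other pair of the same sex and condition. Their chi-square per degree of freedom was 1.63, against at least 6.23 for the closest pair of each other group. They still differed by more than counting noise and were kept as 2 libraries, and without one or the other the sex difference gave 94 or 98 calls.

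Of the 149 genes that passed in males, described below, 11 were on a clock list of 23 genes. Promoters of 5 genes that changed in males are shown first, picked because they hold a motif of the clock. They are the 250 bases before an annotated start in RefSeq on GRCm38.p6, in lower case with each E-box (CACGTG) or AGGTCA half-site (AGGTCA or TGACCT) in capitals. Tef (chr15:81802423-81802672, plus strand), Ciart (chr3:95882229-95882478, minus strand), Tspan4 (chr7:141476130-141476379, plus strand) and Nr1d2 (chr14:18239107-18239356, minus strand) were higher in Western males, and Slc41a3 (chr6:90618996-90619245, plus strand) was lower.
Tef: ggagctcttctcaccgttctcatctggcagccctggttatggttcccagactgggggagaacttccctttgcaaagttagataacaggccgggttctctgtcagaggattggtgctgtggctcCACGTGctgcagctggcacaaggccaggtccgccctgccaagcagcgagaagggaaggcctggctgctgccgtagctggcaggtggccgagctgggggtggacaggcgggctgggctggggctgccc
Ciart: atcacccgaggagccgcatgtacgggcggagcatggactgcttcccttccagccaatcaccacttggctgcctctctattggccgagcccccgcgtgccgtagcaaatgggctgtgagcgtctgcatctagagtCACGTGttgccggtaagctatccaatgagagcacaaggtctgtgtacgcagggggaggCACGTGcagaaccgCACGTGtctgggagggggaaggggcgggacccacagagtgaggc
Tspan4: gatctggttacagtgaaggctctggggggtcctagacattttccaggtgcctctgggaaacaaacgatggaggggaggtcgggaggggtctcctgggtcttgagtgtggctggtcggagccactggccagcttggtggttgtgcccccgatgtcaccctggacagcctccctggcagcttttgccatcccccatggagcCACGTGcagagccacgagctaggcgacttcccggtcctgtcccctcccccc
Nr1d2: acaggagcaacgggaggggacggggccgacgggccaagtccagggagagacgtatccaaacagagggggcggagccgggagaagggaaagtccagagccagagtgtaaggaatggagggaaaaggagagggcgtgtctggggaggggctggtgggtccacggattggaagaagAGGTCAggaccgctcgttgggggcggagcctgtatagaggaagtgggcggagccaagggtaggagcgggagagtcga
Slc41a3: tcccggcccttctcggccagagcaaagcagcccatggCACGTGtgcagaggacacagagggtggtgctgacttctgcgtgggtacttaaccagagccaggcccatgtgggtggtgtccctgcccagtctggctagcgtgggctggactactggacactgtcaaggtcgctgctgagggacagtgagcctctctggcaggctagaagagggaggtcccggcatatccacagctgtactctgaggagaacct
Ciart held 3 E-boxes, the first beginning 116 bases and the last 44 bases before its start. Tef, Tspan4 and Slc41a3 held 1 each, beginning 127, 51 and 213 bases before the start, and Nr1d2 held 1 half-site, 77 bases before it. No match was found in the windows of Per3, Hlf, Dbp, Cry2, Npas2, Cys1, Timp3, Timp4 and Mthfd1l, which also changed in males, or in the other window of Tspan4. Matches not printed here lay in other windows of genes that changed in males. A Bmal1 window held a half-site 31 bases past its start and Adh1 an E-box 4 bases past its start. The other Tef window held an E-box, and Leo1 a half-site, before the start. Neither motif overlaps the other, and both strands were searched. Over the table's full windows of 300 bases, which end 50 bases past the start, 7.15% of 32851 windows held an E-box and 16.3% a half-site. An E-box stood in a window of 11 of the 50 matched genes among those higher in Western males (22%), of 9 of the 67 among those lower (13.4%) and of 11.4% of the matched genes among all tested. For the half-site the shares were 18%, 26.9% and 15.1%. Of 19 matched genes of the clock list, 6 held an E-box (31.6%) and 5 a half-site (26.3%). A match describes letters only.

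Over all 40 libraries, with sex and run as blocks, no gene passed an adjusted p of 0.05 (0% of 15198 genes tested, edgeR's quasi-likelihood test). At an unadjusted p under 0.05 there were 1144 genes (7.53%), where 760 are expected with no effect, and DESeq2 called 5. The 10 genes of smallest p were all lower in the Western diet libraries, none of them past the threshold. Chordc1, a co-chaperone of HSP90 (chromosome 9, 18203387 to 18228746 on GRCm39), ran from 23 to 36.2 CPM (median 29.4) in male Western libraries and from 33.6 to 43.2 CPM (median 36.7) in male gamma libraries. In females it ran from 30.8 to 43 CPM (median 36.7) and from 37.2 to 51.7 CPM (median 40.8). The groups overlapped in both sexes, with 8 of 10 male and 6 of 10 female Western libraries below the lowest gamma library of their sex. Its log2 fold change, Western minus gamma here and throughout, was -0.24 ± 0.05 (SE, adjusted p = 0.106), and -0.25 without male gamma replicate 10 (adjusted p = 0.14).

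Nedd9, a scaffold protein of focal adhesions (chromosome 13, 41463057 to 41640838), had a log2 fold change of -0.36 ± 0.07 (adjusted p = 0.106). It ran from 15.6 to 31.1 CPM in male Western and from 25.6 to 43.3 CPM in male gamma libraries, and the female groups, at 23.3 to 35.1 and 25.5 to 44 CPM, lay closer together. The others were Cldnd1, Man1a (a mannosidase of glycan trimming), Rnft1, Cbfb (the partner of RUNX factors), P4ha1 (a collagen prolyl hydroxylase), Hsph1 (a heat shock protein), Lats2 (a Hippo pathway kinase) and Cmtr2 (an mRNA cap methyltransferase), with log2 values from -0.34 for Cmtr2 to -0.18 for Rnft1. Each of the 10 was below 0 in all 4 combinations of sex and run. They were picked by p over these same libraries, so the agreement of sign is largely set by that choice. Of the 100 genes of smallest p, 59 were negative.

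**Figure D1:**
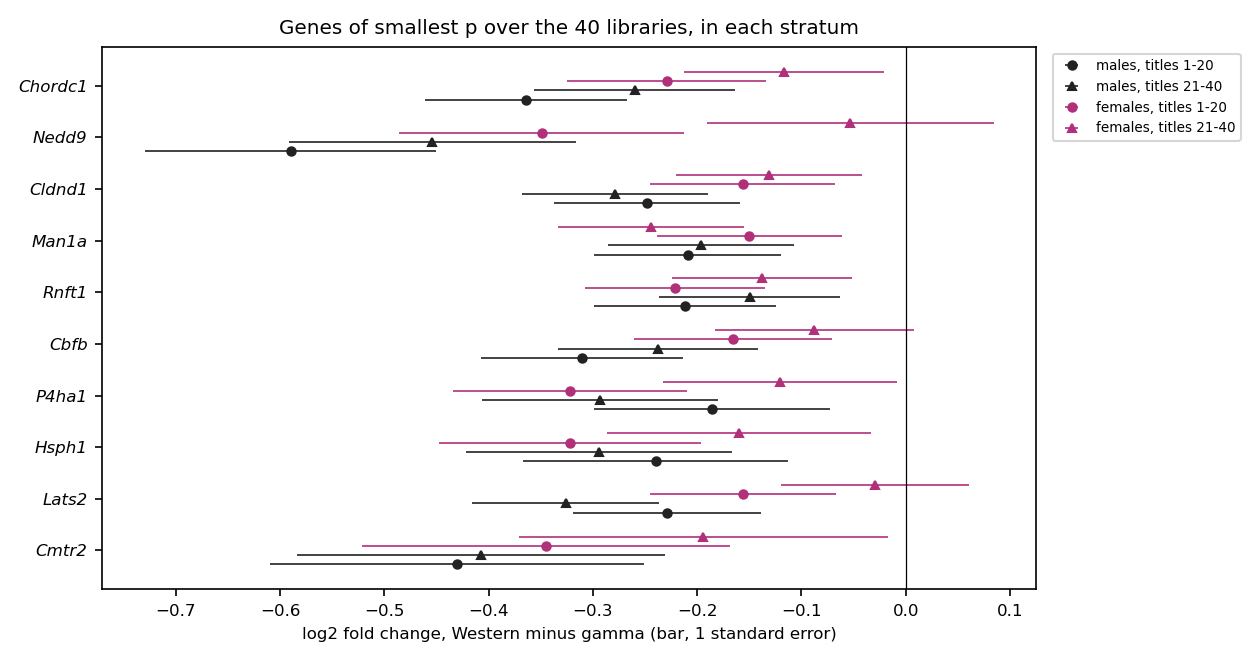
Log2 fold change (Western minus gamma, horizontal axis) of the 10 genes of smallest p over the 40 libraries, in each sex and run of titles, with bars of 1 standard error and 5 libraries per condition behind each point. All points lie left of 0, and for Nedd9 and Lats2 the females of titles 21-40 lie nearest to it. The genes were picked by p over these same libraries.

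In males 149 genes passed the test (0.98% of those tested), 63 higher (0.415%) and 86 lower (0.566%) on the Western diet. Genes of the clock list were among them: Per2, Per3, Tef, Hlf, Dbp and Tspan4 (a membrane protein listed with them) rose, while Bmal1 and Npas2 fell. The median size over the 149 genes was 0.506 on the log2 scale (median SE 0.108) and 26 exceeded 2-fold. In females no gene passed (0%), with 1076 at an unadjusted p under 0.05 (7.08%) against 1819 in males (12%), and DESeq2 called 2 female genes. The difference between the sexes was tested directly, and it passed for 126 genes (0.829%), 76 positive (0.5%) and 50 negative (0.329%), of which 76 were also called in males. Across the 149 male genes the median size in females was 0.134 (median SE 0.109), and 31 had the same sign in both sexes.

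**Figure D2:**
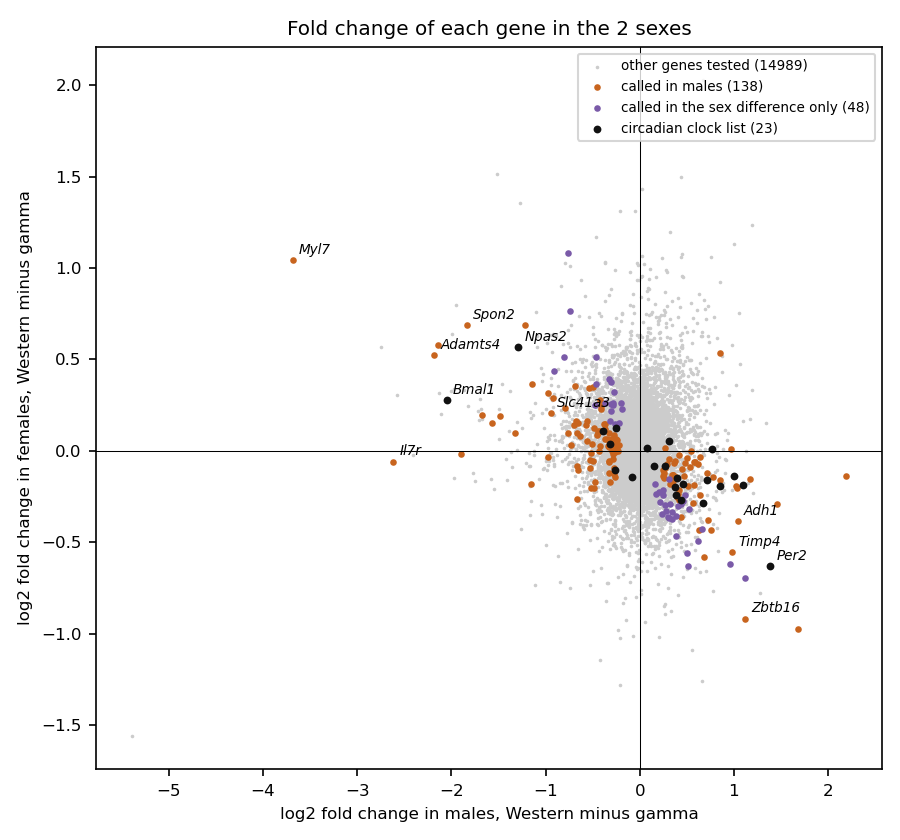
Log2 fold change (Western minus gamma) of each of 15198 genes in males (horizontal axis) and females (vertical axis), with the 23 genes of the clock list in black and, outside that list, genes called in males in orange and genes called in the sex difference but not in males in purple. Bmal1 lies at -2.05 in males and 0.28 in females, and Per2 at 1.38 and -0.63.

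Without male gamma replicate 10 there were 160 male calls, 68 higher and 92 lower. They included 124 of the 149, and all 149 kept their direction. The sex difference then gave 151 calls, and females and all libraries together gave 0 (1153 and 1086 at an unadjusted p under 0.05). Without male gamma replicate 3 the male count was 97. Without the 11 libraries rich in Myl7, which leaves males of the second run only, 3 male genes were called. Of the 149, 148 kept their direction. Here and without male gamma replicate 10, the libraries left had helped to choose the 149 genes, so kept direction is no separate check. Within the runs, 53 genes were called in first-run males (0.349%) and 29 in second-run males (0.191%).

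The clock activators were lower in Western males. Bmal1 (chromosome 7, 112806152 to 112914735) ran from 0.845 to 8.81 CPM (median 2.1) in the 10 male Western libraries and from 7.78 to 15.5 CPM (median 10.6) in the 10 male gamma libraries. All but 1 Western library, replicate 6 at 8.81 CPM, lay below the lowest gamma library. Bmal1 thus fell by 2.05 ± 0.25 (log2, SE, adjusted p = 1.48e-06), by 2.76 in the first run and by 1.35 in the second. The male sham median of 6.96 CPM lay between those medians, and the sham range of 5.11 to 11.4 CPM overlapped both groups. In females Bmal1 ran from 4.25 to 14.9 CPM (median 12.2) on the Western diet and from 2.65 to 20.7 CPM (median 9.72) after gamma radiation. Those groups overlapped widely (log2 0.28 ± 0.22, adjusted p = 0.79), and all 20 libraries were above the female sham median of 2.6 CPM. Female gamma libraries ran from 9.89 to 20.7 CPM in the first run and from 2.65 to 9.56 CPM in the second. The difference between the sexes was -2.33 ± 0.33 (adjusted p = 6.37e-05).

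Npas2 (chromosome 1, 39232705 to 39402323), a paralogue of Clock that pairs with BMAL1, ran from 1.06 to 5.62 CPM (median 1.47) in male Western and from 2.92 to 6.72 CPM (median 4.91) in male gamma libraries. Again 9 of the 10 Western libraries lay below the lowest gamma library, and replicate 6 was the exception. It fell by 1.29 ± 0.26 (adjusted p = 0.00457). In females the medians were 4.68 and 3.19 CPM (log2 0.57 ± 0.25, adjusted p = 0.684). Clock itself did not pass in males (-0.32 ± 0.10, adjusted p = 0.115).

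Among the repressors, Per2 (chromosome 1, 91343700 to 91387069) ran from 21 to 54.3 CPM (median 30.5) in male Western libraries and from 6.92 to 18.9 CPM (median 13) in male gamma libraries. The male groups did not overlap. Per2 rose by 1.38 ± 0.20 (adjusted p = 6.88e-05), and the male sham median of 20.7 CPM lay between them. Female Western libraries were lower than female gamma libraries, with medians of 16.9 and 29 CPM, but the female change did not pass (-0.63 ± 0.20, adjusted p = 0.586). The sex difference was 2.01 ± 0.29 (adjusted p = 6.19e-05). Per3 (chromosome 4, 151081373 to 151129140) ran from 34.9 to 66.3 CPM in male Western and from 16.3 to 29.9 CPM in male gamma libraries, again without overlap, and rose by 1.003 ± 0.15 (adjusted p = 9.94e-05). Its female medians were close, at 38.7 and 39.3 CPM. Cry2 and Ciart, both repressors of the BMAL1 complex, rose by 0.46 ± 0.11 and 0.68 ± 0.18 in males (adjusted p = 0.0276 and 0.0473), and Per1 and Cry1 did not pass there, at 0.37 and 0.43. Cry1 passed narrowly in the sex difference (0.70 ± 0.18, adjusted p = 0.047).

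The PAR bZIP output factors were higher in Western males. Tef (chromosome 15, 81686622 to 81711064) ran from 162 to 273 CPM (median 254) in male Western libraries and from 115 to 157 CPM (median 134) in male gamma libraries, with no overlap. Tef rose by 0.86 ± 0.10 (adjusted p = 1.48e-06), by 0.85 in the first run and 0.86 in the second. In females the medians were 146 CPM on the Western diet and 178 CPM after gamma radiation, and the ranges of 115 to 215 and 132 to 249 CPM overlapped (adjusted p = 0.712). Hlf (chromosome 11, 90227221 to 90281761) ran from 16.1 to 57.8 CPM (median 46.6) and from 14.8 to 26.5 CPM (median 19) in the male groups, with 8 of 10 Western libraries above the highest gamma library, and rose by 1.09 ± 0.18 (adjusted p = 0.000339). Dbp (chromosome 7, 45354512 to 45359627) rose by 0.76 ± 0.17 (adjusted p = 0.0134) from a median of 68.4 to 124 CPM. Its sex difference of 0.75 ± 0.24 did not pass (adjusted p = 0.143).

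Tspan4, a tetraspanin membrane protein (chromosome 7, 141055138 to 141073340), ran from 20.6 to 41.1 CPM (median 37.6) in male Western and from 16.9 to 26.5 CPM (median 21.7) in male gamma libraries. Western replicate 6 alone fell within the gamma range. Tspan4 rose by 0.71 ± 0.09 (adjusted p = 1.06e-05). Nr1d2, which encodes REV-ERB beta, rose by 0.40 ± 0.10 (adjusted p = 0.0488), and its call ended when any of 29 of the 40 libraries was left out. Nr1d1, which encodes REV-ERB alpha, was at -0.39 ± 0.11 and did not pass (adjusted p = 0.0623).

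Of the 23 genes of the clock list tested, 9 rose and 2 fell in males (0.415% and 0.566% over all genes). Their median was 0.372, where the median over all genes was -0.00624. The list was drawn up with earlier results of these data known. It counts Tspan4, a membrane protein outside the clock loop described above, among the 9. In females 0 passed, 15 of 23 were negative and the median was -0.139. The sex difference passed for 8 positive and 2 negative members. Without male gamma replicate 10 the male counts were 8 and 2, since Nr1d2 no longer passed (adjusted p = 0.0688). The first principal component of the clock list over the 40 libraries held 47.8% of its variance. On it 8 male Western libraries lay between -5.59 and -3.16, Western replicates 7 and 6 at -1.45 and 0.612, and the male gamma libraries between -0.0579 and 3.96. Female libraries of the Western and gamma groups overlapped, from -3.23 to 5.58 on the Western diet and from -3.91 to 3.7 after gamma radiation. With the first 2 components as covariates, 134 male genes were called, only 12 of them among the 149, and 0 genes were called in the sex difference. The components are built from clock genes that are themselves among the calls. The hour of collection is not in the labels, and its part in these differences was not tested.

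**Figure D3:**
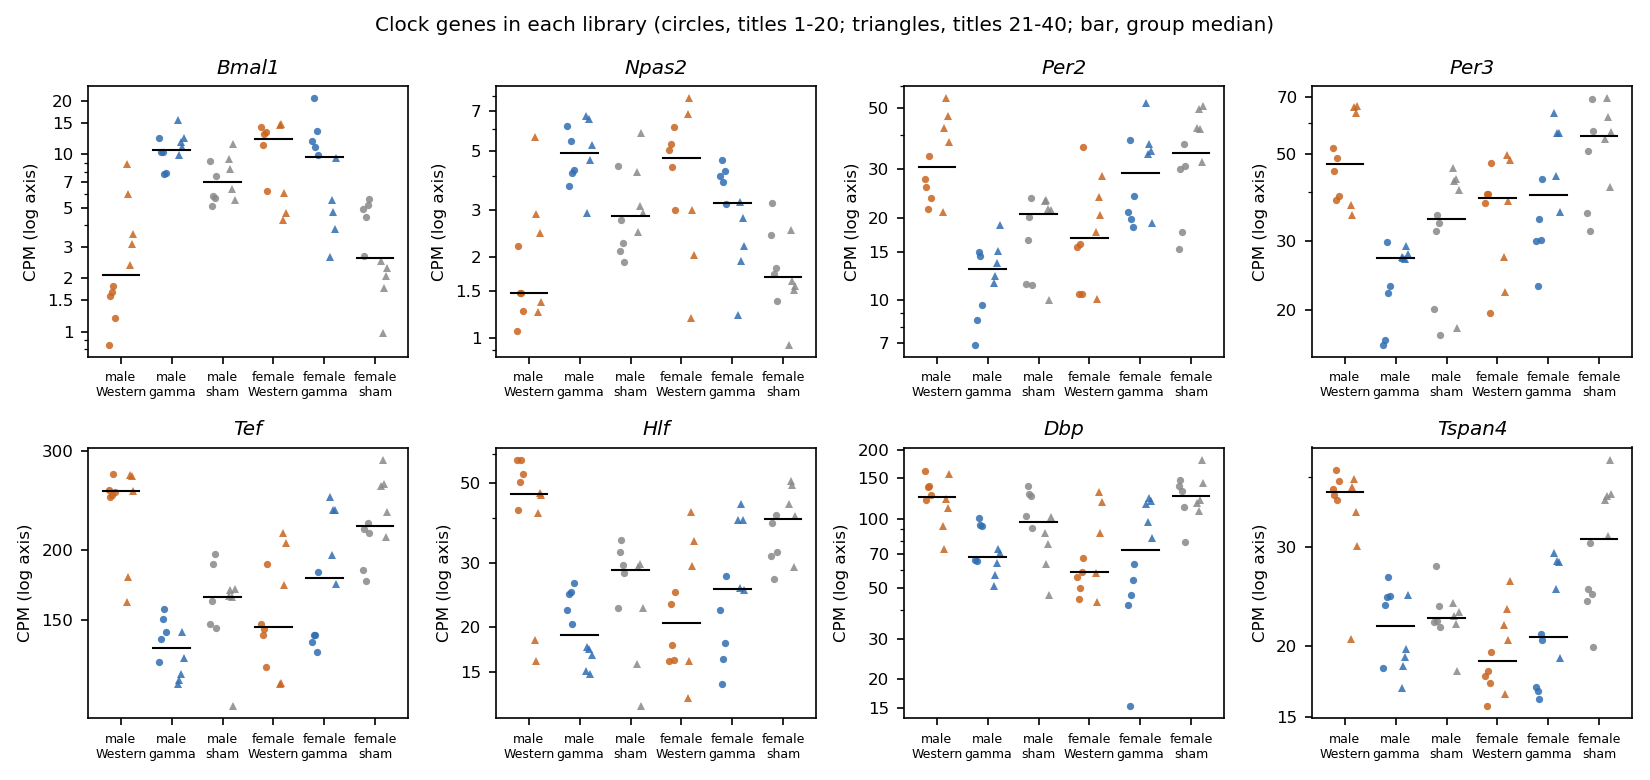
Level of 8 genes of the clock list in CPM (log axis) in each library of the Western, gamma and sham groups by sex, with circles for titles 1-20, triangles for titles 21-40 and a bar at the group median. Male Western libraries sit below male gamma libraries for Bmal1 and Npas2 except for replicate 6, and above all of them for Per2, Per3 and Tef.

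Outside the clock list, Adh1, an alcohol and retinol dehydrogenase (chromosome 3, 137966752 to 137996462), ran from 10.5 to 16.6 CPM (median 13.5) in male Western libraries and from 4.24 to 9.51 CPM (median 6.44) in male gamma libraries. The male groups did not overlap, and male sham libraries, with a median of 7.33 CPM, lay near the gamma libraries. Adh1 rose by 1.04 ± 0.14 (adjusted p = 2.83e-05), with a sex difference of 1.42 ± 0.21 (adjusted p = 6.44e-05). Its call in males held with the clock components as covariates (log2 0.93). Mthfd1l, a mitochondrial folate enzyme, rose by 1.18 ± 0.21 from a median of 1.51 to 3.49 CPM (adjusted p = 0.00173).

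Slc41a3, a magnesium transporter (chromosome 6, 90581677 to 90623394), had the smallest p in males and was chosen after its values were seen. It ran from 35.5 to 79.7 CPM (median 41.1) in male Western and from 68.8 to 113 CPM (median 88.6) in male gamma libraries, with 9 of 10 Western libraries below the gamma range. It fell by 0.94 ± 0.11 (adjusted p = 1.4e-06), by 1.30 in the first run and 0.58 in the second. In females it did not pass (0.20 ± 0.11, adjusted p = 0.706), and the sex difference was -1.15 ± 0.15 (adjusted p = 5e-05).

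Cys1, a cilium protein (chromosome 12, 24715832 to 24731812), rose by 1.03 ± 0.12 (adjusted p = 1.48e-06), from a median of 4.6 to 9.93 CPM, with 9 of 10 Western libraries above the gamma range. Zbtb16, a transcription factor induced by glucocorticoids (chromosome 9, 48563141 to 48748664), ran from 48.3 to 123 CPM (median 75.5) in male Western and from 22.3 to 49.7 CPM (median 34.8) in male gamma libraries. It rose by 1.12 ± 0.23 (adjusted p = 0.00915). In females the order was the other way, with medians of 48.5 and 81.1 CPM (-0.92 ± 0.23, adjusted p = 0.586), and female gamma replicate 2 stood at 294 CPM. The sex difference was 2.03 ± 0.33 (adjusted p = 0.000472). Lingo1, a neuronal membrane protein, rose by 1.03 ± 0.26 (adjusted p = 0.0332), and its call ended when any of 9 libraries was left out, male gamma replicate 10 among them (adjusted p = 0.0671).

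The largest falls included secreted matrix proteins. Adamts4, a protease that cleaves proteoglycans (chromosome 1, 171077986 to 171089841), ran from 0 to 1.86 CPM (median 0.292) in male Western and from 1.52 to 2.89 CPM (median 2.14) in male gamma libraries. It fell by 2.18 ± 0.38 (adjusted p = 0.000933), and 8 of 10 Western libraries lay below the gamma range. Spon2, a secreted matrix protein (chromosome 5, 33353751 to 33378075), fell by 1.83 ± 0.33 (adjusted p = 0.00173), from a median of 5.25 to 0.957 CPM. In females both had the opposite sign and neither passed, at 0.53 and 0.69. Their sex differences were -2.71 ± 0.51 and -2.52 ± 0.45 (adjusted p = 0.00278 and 0.00138). Rasl11a, a small GTPase, fell by 1.32 ± 0.25 (adjusted p = 0.00306).

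Of the 8 largest male falls, 3 rested on male gamma replicate 10. Il7r, the interleukin 7 receptor of lymphocytes, was at 67.1 CPM there and at most 1.36 CPM in the other male gamma libraries, against 0.199 to 1.09 CPM in male Western libraries. Its log2 value of -2.62 ± 0.66 (adjusted p = 0.0347) became -0.62 without that library (adjusted p = 0.484). Grap2, a T cell adaptor, was at 27.2 CPM there and at most 2.45 CPM in the others, and its value went from -1.57 (adjusted p = 0.0473) to -0.41 (adjusted p = 0.437). Myl7 went from -3.68 ± 0.87 (adjusted p = 0.0224) to -0.33 (adjusted p = 0.946). All 3 calls ended.

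**Figure D4:**
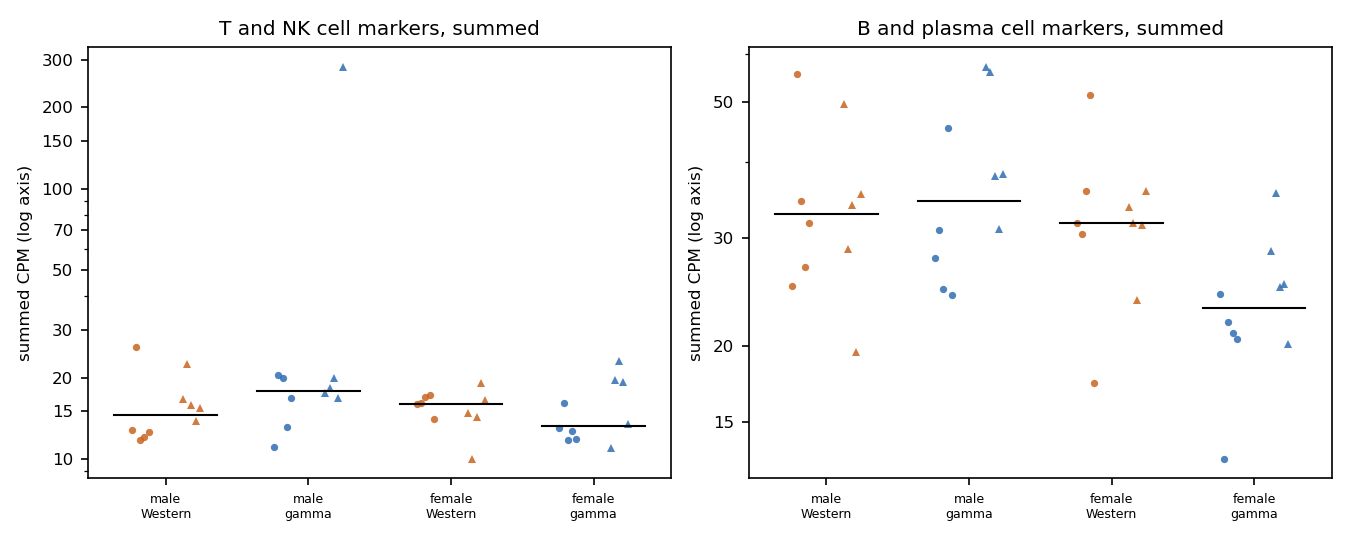
Summed CPM (log axis) of the T and NK cell markers (left) and the B and plasma cell markers (right) in each library, with circles for titles 1-20, triangles for titles 21-40 and a bar at the group median. Male gamma replicate 10 stands at 282 CPM of T and NK cell markers, and female Western libraries have a higher median of B cell markers (31.7 CPM) than female gamma libraries (23.1 CPM).

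In females the 5 genes of smallest p had an adjusted p of 0.586. Lvrn, an aminopeptidase, ran from 0.332 to 1.44 CPM (median 0.72) in Western and from 0.862 to 2.58 CPM (median 1.41) in gamma libraries (-1.01 ± 0.22). Cox4i2, a cytochrome c oxidase subunit isoform, ran from 7.59 to 13.9 CPM and from 6.08 to 8.74 CPM (0.43 ± 0.10), with 7 of 10 Western libraries above the gamma range. Ubtd2 was at -0.69, Rrad, a GTPase that limits calcium channels, at 0.53 and Gtf3c2 at 0.28. In males the same 5 genes lay between -0.23 and 0.04. Leaving out female Western replicate 5 gave 3 female calls. Within first-run females 5 genes were called, all lower (0.0329%). These were mt-Nd4l, a subunit of complex I (-1.17), and Atp6-ps, Gm10222, Gm13340 and Gm28439, all named after their values were seen. The last 4 can share reads with mitochondrial genes, so they are uncertain. In second-run females 0 passed by edgeR (0%, with 1312, or 8.63%, at an unadjusted p under 0.05).

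Further genes passed in the test of the difference between the sexes. Timp4, a tissue inhibitor of metalloproteinases (chromosome 6, 115187773 to 115229336), ran from 18.7 to 45.6 CPM (median 26.3) in male Western and from 9.1 to 24.1 CPM (median 14.9) in male gamma libraries. It rose by 0.98 ± 0.17 in males (adjusted p = 0.000615), while the female medians were 21.7 and 34.4 CPM (-0.55 ± 0.16, adjusted p = 0.586). Its sex difference was 1.53 ± 0.23 (adjusted p = 0.000139). Timp3, of the same family (chromosome 10, 86136236 to 86185371), rose by 0.68 ± 0.16 in males (adjusted p = 0.0202), with female medians of 82.1 and 132 CPM (-0.58 ± 0.16). Its sex difference was 1.27 ± 0.22 (adjusted p = 0.00142). Fam107a, induced by stress hormones, differed by 1.81 ± 0.41 (adjusted p = 0.0206) and passed in neither sex (in males it passed without male gamma replicate 10, adjusted p = 0.0322), with male Western replicate 7 at 29.7 CPM and the next at 8.97 CPM. Tmem171, Gprasp2 and Capn12 differed by -1.51, -1.35 and -1.32.

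Between the runs, 3 genes were called in titles 1-20 over both sexes (0.0197%) and 0 in titles 21-40 (0%), where 698 (4.59%) had an unadjusted p under 0.05 and DESeq2 called 1. The 3 were Slc41a3 (-0.67), Bmal1 (-1.48) and Rhoj, an endothelial GTPase (-0.55). In titles 21-40 they were at -0.07, -0.29 and -0.08. The difference between the runs, tested itself, passed for no gene (0%, with 870, or 5.72%, at an unadjusted p under 0.05 and 0 by DESeq2). Without male gamma replicate 10, titles 1-20 gave 5 calls.

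Lists tied to diet gave few calls. Of 32 fatty acid oxidation genes 0 passed in either sex (2 in males and 5 in females at an unadjusted p under 0.05, beside 12% and 7.08% of all genes), with medians of 0.03 in males and -0.09 in females. The male median was -0.03 without male gamma replicate 10, with 10 of 32 positive in place of 21. In females 27 of 32 were negative, all 5 at an unadjusted p under 0.05 among them, beside 7426 of 15198 genes tested. Of 23 genes of fatty acid uptake and lipid droplets 0 passed within a sex, and Dgat2, which makes triglycerides, differed between the sexes by 0.47 ± 0.12 (adjusted p = 0.0382), a call that ended without male gamma replicate 10 (adjusted p = 0.0511). None of 15 fatty acid synthesis or 25 glycolysis genes passed. Of 19 genes in the insulin and FOXO list Fbxo32, a muscle ubiquitin ligase, rose in males (0.35 ± 0.09, adjusted p = 0.0344), where 0.415% of all genes did. Foxo3 and Pik3r1 of that list passed in the sex difference (0.74 and 0.73). The 13 mitochondrially encoded genes gave 0 calls in males. All 13 were positive in first-run males (median 0.252), but 11 were negative in second-run males (median -0.102).

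Of 29 p53 targets, 1 rose and 1 fell in males, where 0.98% of all genes were called. At an unadjusted p under 0.05, 1 was higher and 4 were lower in males, beside 4.55% and 7.42% of all genes. Bbc3, which encodes the cell death protein PUMA, ran from 3.48 to 6.49 CPM (median 4.95) on the Western diet and from 5.49 to 10.8 CPM (median 7.47) after gamma radiation. It fell by 0.66 ± 0.12 (adjusted p = 0.00173), and 7 of 10 Western libraries lay below the gamma range. Ephx1, an epoxide hydrolase, rose by 0.35 ± 0.09 (adjusted p = 0.0311). Of 40 genes of DNA damage sensing and repair 2 rose in males (0.415% over all genes), namely Shld1 of the shieldin complex (0.64 ± 0.13, adjusted p = 0.005) and Ogg1, which removes oxidized guanine (0.36 ± 0.09, adjusted p = 0.0418). The medians of the p53 list were -0.03 in males and 0.01 in females. Cell cycle genes gave 0 calls in either sex, and 26 of 27 were positive in females with a median of 0.232, beside 17 of 27 in males. Over all genes tested, 7769 of 15198 were positive in females.

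Of 45 interferon response genes 42 were negative in males (median -0.261) and 37 positive in females (median 0.109). Over all 15198 genes tested, 7902 were negative in males and 7769 positive in females. The 2 interferon response genes that fell in males (0.566% over all genes) were the GTPases Irgm2 (-0.66 ± 0.16, adjusted p = 0.0224) and Igtp (-0.76 ± 0.19, adjusted p = 0.0347). Without male gamma replicate 10 neither passed (adjusted p = 0.0556 and 0.0912) and the male median was -0.198. All 10 T and NK cell genes tested were negative in males with a median of -1.17, which was -0.07 without that library. The 13 B and plasma cell genes tested were all positive in females, with a median of 0.796 and 0 called. Their summed level ran from 17.4 to 51.5 CPM in female Western and from 13.1 to 35.6 CPM in female gamma libraries. The 4 neutrophil genes tested had a median of 0.801 in males with 0 called, and their listed markers summed to 58.7 CPM in male Western replicate 7 and at most 13.2 CPM in the other male Western libraries. In such bulk tissue fewer cells of a type and less RNA per cell cannot be told apart.

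Of 14 glucocorticoid response genes, Zbtb16 rose and Errfi1, an inhibitor of the EGF receptor, fell in males (-0.66 ± 0.16, adjusted p = 0.0281), where 0.415% of all genes rose and 0.566% fell. All 14 were negative in females with a median of -0.315 and 0 called, beside 7426 negative of 15198 genes tested. Klf9 and Fkbp5 passed in the sex difference (0.56 and 1.15), the second only narrowly (adjusted p = 0.047), with female gamma replicate 2 at 65.9 CPM and male Western replicate 7 at 62.9 CPM. Without female gamma replicate 2 its adjusted p was 0.09. Of 22 immediate early genes 19 were negative in males and 18 positive in females, beside 7902 and 7769 of 15198 genes tested. The male direction was that of the first run (19 negative, median -0.558), while 12 were positive in second-run males (median 0.04). Ier3 alone rose in males (0.54 ± 0.11, adjusted p = 0.00446), and Junb passed in the sex difference (-0.72 ± 0.19, adjusted p = 0.0493), a call that ended when any of 29 libraries was left out, male gamma replicate 10 among them.

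Most chaperone genes were negative in males, 18 of 23 in the endoplasmic reticulum and 17 of 24 in the cytosol, beside 7902 of 15198 genes tested. Among all genes tested, 0.566% fell and 0.415% rose in males. Of the 23 endoplasmic reticulum chaperone genes, Pdia4 (-0.33 ± 0.07, adjusted p = 0.0077) and Hyou1 (-0.33 ± 0.08, adjusted p = 0.0217) fell in males and Herpud1, which acts in protein degradation there, rose (0.43 ± 0.10, adjusted p = 0.0224). Of the 24 cytosolic heat shock genes Chordc1 (-0.31 ± 0.07, adjusted p = 0.0122) and Dnajb5 (-0.29 ± 0.07, adjusted p = 0.0224) fell in males. Osgin1, of 22 NRF2 targets, rose in males (0.59 ± 0.15, adjusted p = 0.0473), and Gclm, which acts in glutathione synthesis, passed in the sex difference (0.50 ± 0.12, adjusted p = 0.0227).

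Of 48 collagen and fibrosis genes, 1 rose and 2 fell in males, against 0.415% and 0.566% of all genes. Timp3 rose, and Col5a3, a collagen V chain, fell from a median of 44.6 to 22.8 CPM (-0.97 ± 0.19, adjusted p = 0.00394), as did Serpinh1, the collagen chaperone (-0.34 ± 0.07, adjusted p = 0.0106). Gja1, the gap junction protein connexin 43, ran from 254 to 363 CPM in male Western and from 326 to 472 CPM in male gamma libraries and fell by 0.38 ± 0.08 (adjusted p = 0.0158). Tcap, a Z-disc protein, rose by 0.41 ± 0.10 (adjusted p = 0.0314) as 1 of 21 sarcomere genes, and did not pass without male gamma replicate 10 (adjusted p = 0.0619). Of 20 senescence and secreted inflammation genes Ccl2, a monocyte chemokine, fell in males (-0.79 ± 0.20, adjusted p = 0.0332). Flt1, a VEGF receptor, differed by 0.49 ± 0.12 (adjusted p = 0.038). None of 14 hypertrophy genes passed in either sex, and without male gamma replicate 10 the cardiac transcription factor Gata4 passed in males (-0.29, adjusted p = 0.0486). Macrophage, fibroblast and ventricular cardiomyocyte markers gave 0 calls, with medians within 0.11 of 0 in each sex.

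**Figure D5:**
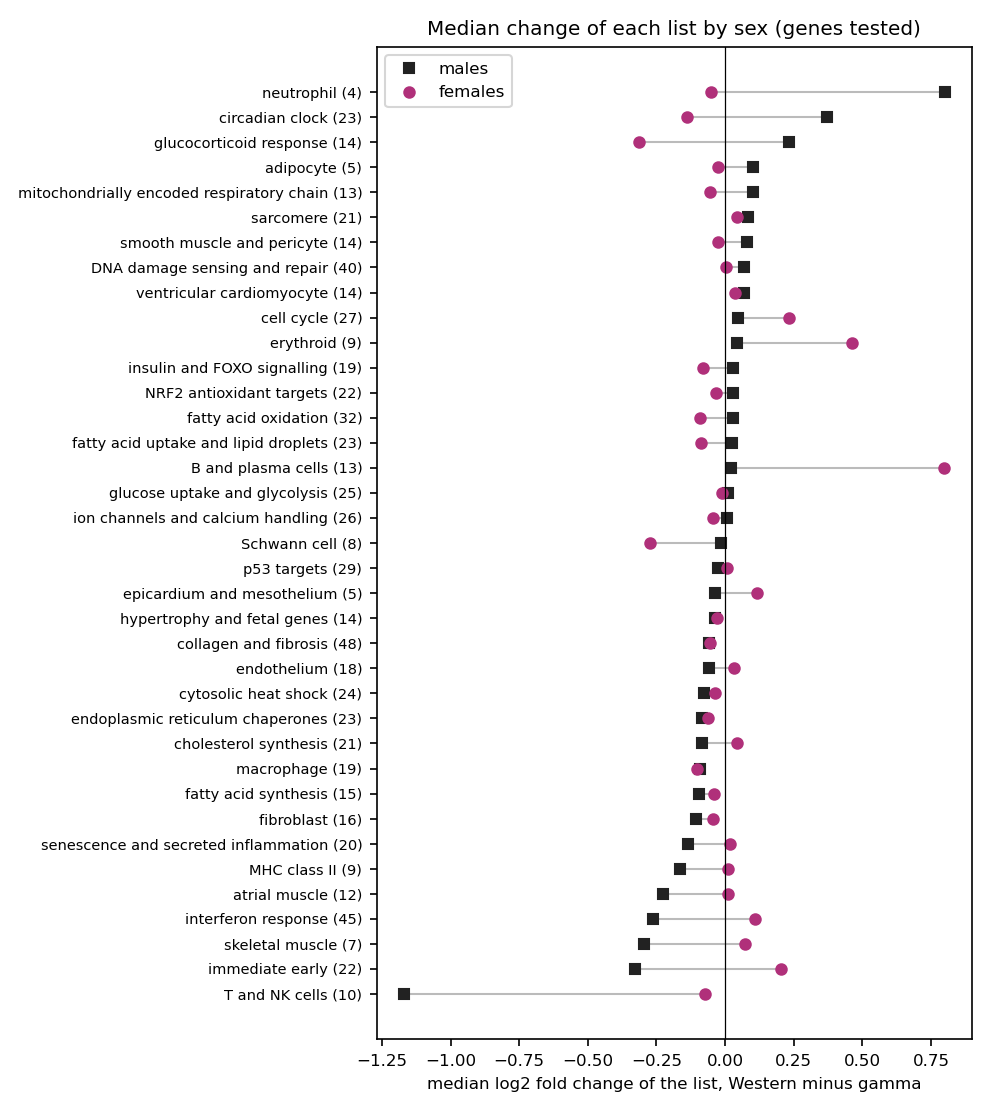
Median log2 fold change (Western minus gamma) of each gene list in males (squares) and females (circles), with the number of genes tested in brackets. The clock list stands at 0.372 in males and -0.139 in females, and the T and NK cell list at -1.17 in males, a value set by male gamma replicate 10.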

How the data were processed

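The authors deposited raw counts per gene, whole numbers for 56941 Ensembl genes with 1 column per sample title. Per the labels' protocols, column-purified RNA was selected by poly-A and made into NEBNext Ultra II libraries for paired-end NovaSeq-6000 sequencing. FastQC 0.11.9, STAR 2.7.8a (a read aligner) and the build GRCm39 (mm39) are listed, per the submitters' processing notes. Which tool, strand setting and annotation made the counts is not given in the sources used here. Therefore overlapping or antisense genes and close copies may share reads. Symbols and coordinates came from GENCODE on GRCm39 (56323 genes matched).

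Counts were tested with edgeR 4.0.16 (quasi-likelihood F test, TMM, R 4.3.3, limma 3.58.1). filterByExpr on sex and condition left 15198 genes, with 99.78% or more of the counts in every library. Over all libraries the fit held condition and 4 strata (sex by title run, 5 libraries per condition each). The sexes, runs and their differences came from a fit with 1 coefficient per sex, run and condition. A gene was called at a Benjamini-Hochberg adjusted p under 0.05. The SE was the log2 fold change over the square root of F. Common dispersion came to 0.0299 (17.3% variation between libraries). Levels are CPM on TMM-adjusted sizes. No pair of libraries of the same sex and condition agreed within counting noise (smallest chi-square per degree of freedom 1.63). Pairs across groups were not compared. Alternatives used DESeq2 1.42.0, limma voom, other filters and scalings, all 80 libraries, added covariates and left-out libraries. Scripts were tested on simulated data.

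Genes were named by a rule. It takes up to 8 rises and 8 falls among called genes of at least 1 CPM in males and in the sex difference, the 10 or 5 of smallest p where few were called, and up to 3 members of each of 37 lists. Most list members taken by the rule that passed no test are not described, so the list members named are mainly those that passed. List members called in males, and genes so marked in the text, were named after their values were seen. Predicted genes, receptor segments, pseudogenes, Y-linked genes and Xist were left out, and some items are not reported here. Samples, lists and rule were chosen with earlier results of these data known. Promoters were matched by Ensembl identifier, symbol or synonym through the RefSeq gene table.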

Additional observations from a re-analysis of the deposited data

Results flagged for a closer look

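Over 61 genes and the marker lists, 306 groups of 10 libraries were searched for a library far from the rest. The search gave 46, where a rate of 5% would give about 15. The 306 include groups of genes not reported here, and anything found for those is left out of the 46. The rate of 5% assumes independent, normally distributed values, which levels of related genes need not be, so 46 beside 15 is no test. No cause was tested for any of the 46.

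Male gamma replicate 10 stood apart for T and NK cell markers (summed 282 CPM, the next library 20.4), Il7r (67.1 CPM, next 1.36), Grap2 (27.2 CPM) and Man1a (46.5 CPM). Male Western replicate 6, the library nearest to the gamma group on the clock genes, stood apart for Npas2 (5.62 CPM), Tspan4 (20.6 CPM, the lowest, next 30.2) and Col5a3 (63.2 CPM). Male Western replicate 7 was highest for Fam107a (29.7 CPM), Fkbp5 (62.9 CPM) and Junb (45.6 CPM), and for neutrophil (58.7 CPM), adipocyte (852 CPM), epicardium (58.2 CPM) and erythroid markers (1640 CPM). Female gamma replicate 2 was highest for Zbtb16 (294 CPM), Fam107a (20.7 CPM), Timp4 (75.1 CPM), Pik3r1 (229 CPM), Fbxo32 (198 CPM), Fkbp5 (65.9 CPM) and neutrophil markers (20.1 CPM), and lowest for Gja1 (197 CPM, next 298).

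Female gamma replicate 7 had 0.129 CPM of Xist (next 117) and the highest smooth muscle and pericyte markers (4200 CPM). Female Western replicate 5 was highest for Zbtb16 (114 CPM) and Timp4 (45.5 CPM), and female Western replicate 6 for Cys1 (9.7 CPM) and Capn12 (2.94 CPM). Myl7 was highest in male Western replicate 1 (228 CPM), male gamma replicate 3 (243 CPM, with 2280 CPM of atrial markers) and female gamma replicate 6 (0.286 CPM), which also had the highest Lingo1 (3 CPM). Macrophage markers (742 CPM) and MHC class II markers (608 CPM) were highest in male Western replicate 2.

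Single genes account for the rest. They are Chordc1 in male gamma replicate 8 (43.2 CPM), Rnft1 in female gamma replicate 4 (25.1 CPM), Spon2 in the same library (8.89 CPM), P4ha1 in female Western replicate 9 (75.6 CPM), Cox4i2 in male gamma replicate 1 (18.7 CPM) and Ubtd2 in female gamma replicate 3 (2.89 CPM). Fbxo32 in male gamma replicate 5 (168 CPM), Ier3 in male gamma replicate 7 (44.8 CPM) and Nr1d2 in male gamma replicate 4 (69.1 CPM, the lowest) complete the genes. Erythroid markers in male gamma replicate 7 (1220 CPM) and skeletal muscle markers in female Western replicate 7 (1410 CPM) complete the lists.

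The Western minus gamma change differed between males and females for 126 genes by edgeR's quasi-likelihood test. Of the genes described, the difference (males minus females, log2) was positive for Per2 (2.01), Per3 (1.14), Tef (1.05), Hlf (1.28), Cry1 (0.70), Cry2 (0.64), Tspan4 (0.87), Zbtb16 (2.03), Fkbp5 (1.15), Klf9 (0.56), Fam107a (1.81), Timp4 (1.53), Timp3 (1.27) and Adh1 (1.42). It was also positive for Cys1 (1.23), Mthfd1l (1.33), Dgat2 (0.47), Foxo3 (0.74), Pik3r1 (0.73), Fbxo32 (0.48), Ephx1 (0.48), Shld1 (0.88), Herpud1 (0.80), Gclm (0.50), Ier3 (0.63) and Flt1 (0.49). It was negative for Bmal1 (-2.33), Npas2 (-1.86), Adamts4 (-2.71), Spon2 (-2.52), Rasl11a (-1.41), Tmem171 (-1.51), Gprasp2 (-1.35), Capn12 (-1.32), Bbc3 (-0.81), Col5a3 (-1.28), Gja1 (-0.52), Slc41a3 (-1.15), Leo1 (-0.83) and Junb (-0.72).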

How the results depend on the processing

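No paired analysis was possible because the title numbers of the Western and gamma libraries share none. Counts of calls depended on the tool and the filter. DESeq2 gave 5 over all libraries, 233 in males (98 higher, 135 lower), 2 in females, 214 in the sex difference, 31 in titles 1-20 and 1 in titles 21-40. With no filter on low counts there were 1, 486 (140 higher, 346 lower), 80, 451 (188 higher, 263 lower), 162 and 96, and 78 in the difference between the runs. Without the 11 libraries rich in Myl7 males gave 3 and the sex difference 20, and titles 1-20 and the run difference gave no value. That setting removes first-run males. With clock components as covariates there was 1 call over all libraries, 0 in the sex difference (1241 at an unadjusted p under 0.05) and 1 in titles 1-20. One coefficient per combination of sex, run and condition gave 2 over all libraries. Titles 1-20 gave 5 by limma voom, 9 with all 80 libraries in the fit (and titles 21-40 then 3), 7 without mitochondrial counts, and 5 without male gamma replicate 10. They also gave 5 without it and female gamma replicate 7, an alternative chosen after seeing the data. Without male gamma replicate 10 the sex difference split into 78 positive and 73 negative, against 76 and 50.

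Leaving out each of the 40 libraries in turn gave 0 to 2 calls over all libraries (2 without male Western replicate 5), 97 to 179 in males (97 without male gamma replicate 3), 0 to 3 in females (3 without female Western replicate 5), 72 to 175 in the sex difference (72 without female gamma replicate 6, 74 without female Western replicate 7, 77 without female gamma replicate 2, 81 without male Western replicate 9), 3 to 19 in titles 1-20 (19 without female Western replicate 4), 0 to 1 in titles 21-40 (1 without male gamma replicate 7) and 0 to 0 in the run difference. Reversals occurred only with clock components as covariates. These were, in males, Hlf (-0.10), Npas2 (0.13), Cry2 (-0.14), Dbp (-0.14) and Nr1d2 (-0.26), and in the sex difference Hlf (-0.20), Npas2 (0.17), Col5a3 (0.0842) and Klf9 (-0.0192). None of the 9 passed then (adjusted p from 0.0943 to 0.987). Of 72 results for named genes, another 45 kept their direction and lost their call with these covariates, and 6 did by limma voom and 7 with all 80 libraries. Of 71 results, 45 lost it without the Myl7-rich libraries. The cause was not tested.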
